A study of Mus musculus with 12 samples.

Results

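The genes described here are 9 ion channel genes of the heart: Kcnj3, Kcnj5, Kcnj2, Kcnip2, Kcnd2, Kcnd3, Kcnh2, Kcnq1 and Hcn4. They were taken by name from an Agilent mouse array, on which 19513 genes carried a current symbol. The working name of the set also mentions sodium channels, but none of the 9 is one, so sodium channel genes are given separately below. All 9 genes had a probe, with 14 probes in all, and 12 of these lie on the strand of the mRNA.

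RNA was compared between mENT1 knockout mice (KO) and wild type mice (WT) on the FVB/N strain that all samples share, in heart and in kidney. mENT1, encoded by Slc29a1, is the equilibrative nucleoside transporter that carries adenosine across cell membranes. There were 3 KO hearts, 3 WT hearts, 3 KO kidneys and 3 WT kidneys, named a, b and c in each group, each on an array of its own. How the knockout allele was made, and the age and sex of the mice, are not given in the sources used here.

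These channels shape the electrical cycle of heart muscle. Kcnj3 (Kir3.1) and Kcnj5 (Kir3.4) form the G protein-gated channel of atrial and pacemaker cells, which opens when the A1 adenosine receptor or the M2 muscarinic receptor releases G protein beta-gamma subunits, and so slows the heart. Kcnj2 (Kir2.1) holds the resting potential of ventricular muscle. Kcnd2 (Kv4.2) and Kcnd3 (Kv4.3), with the calcium-binding subunit Kcnip2 (KChIP2), carry the fast transient outward current of early repolarisation. Kcnh2 (ERG) and Kcnq1 carry the rapid and slow delayed rectifier currents, and Hcn4 carries the pacemaker current of the sinus node. Kcnq1 also serves as a potassium channel of epithelia, the kidney tubule among them.

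Values are log2 signals relative to each array's own 75th percentile, so 0 is a bright probe and each unit is a doubling. Each probe binds with its own strength, so a gene's values are set against each other across arrays, never against another gene's. Probes entered a test only if every array of 1 of the groups compared read them as well above background. A call means an adjusted p under 0.05 in limma's moderated test, with Benjamini-Hochberg adjustment over all genes tested.

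Slc29a1 was lower in KO than in WT samples in both tissues, by -2.08 ± 0.26 log2 in heart (SE, limma adjusted p = 0.035) and by -2.85 ± 0.16 in kidney (adjusted p = 0.0055). Whether the deletion covers the stretch that its probe matches was not known. All 8 cardiomyocyte markers were well above background on every heart, and 5 of them (Myh6, Tnnt2, Tnni3, Actc1, Mybpc3) were saturated on all 6 hearts, whereas all 6 proximal tubule markers were well above background on every kidney. KO hearts a and b stood apart from the rest. On them the 10 thymocyte markers had medians of 1.40 and 2.18, against -3.91 on KO heart c and -4.99 to -4.73 on WT hearts. KO hearts a and b and KO kidney a were also the arrays on which Xist exceeded the Y-linked genes. KO hearts shared 1 slide and WT hearts another, so for hearts the effects of slide and of genotype cannot be told apart. Nothing in the labels says that the samples are separate mice, although the design names 3 mice of each genotype, so the p-values measure the spread between these samples.

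In the heart, 8 of the 9 channel genes had lower means in KO than in WT mice, and Hcn4 had a higher one, but none was called. Over all genes tested in heart, 57.7% had a change below 0, the share beside which the counts of changes below 0 for the gene lists that follow also stand. The sizes ran from 1.41-fold lower for Kcnq1 to 2.02-fold lower for Kcnip2, with limma adjusted p-values from 0.201 to 0.701. For comparison, 0.675% of the 17484 genes tested in heart were called. At an unadjusted p under 0.05 in limma there were 3 of the 9 (Kcnip2, Kcnd2 and Kcnj2), against 15.7% of all genes tested. The KO and WT hearts did not overlap for 2 of the 9, Kcnip2 and Kcnd2, both lower in KO, and 13% of all genes tested were lower without overlap. The median change over the 9 genes was -0.67 log2, against -0.07 over all genes tested. In bulk tissue, fewer cells of a type and less RNA per cell cannot be told apart.

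**Figure D1:**
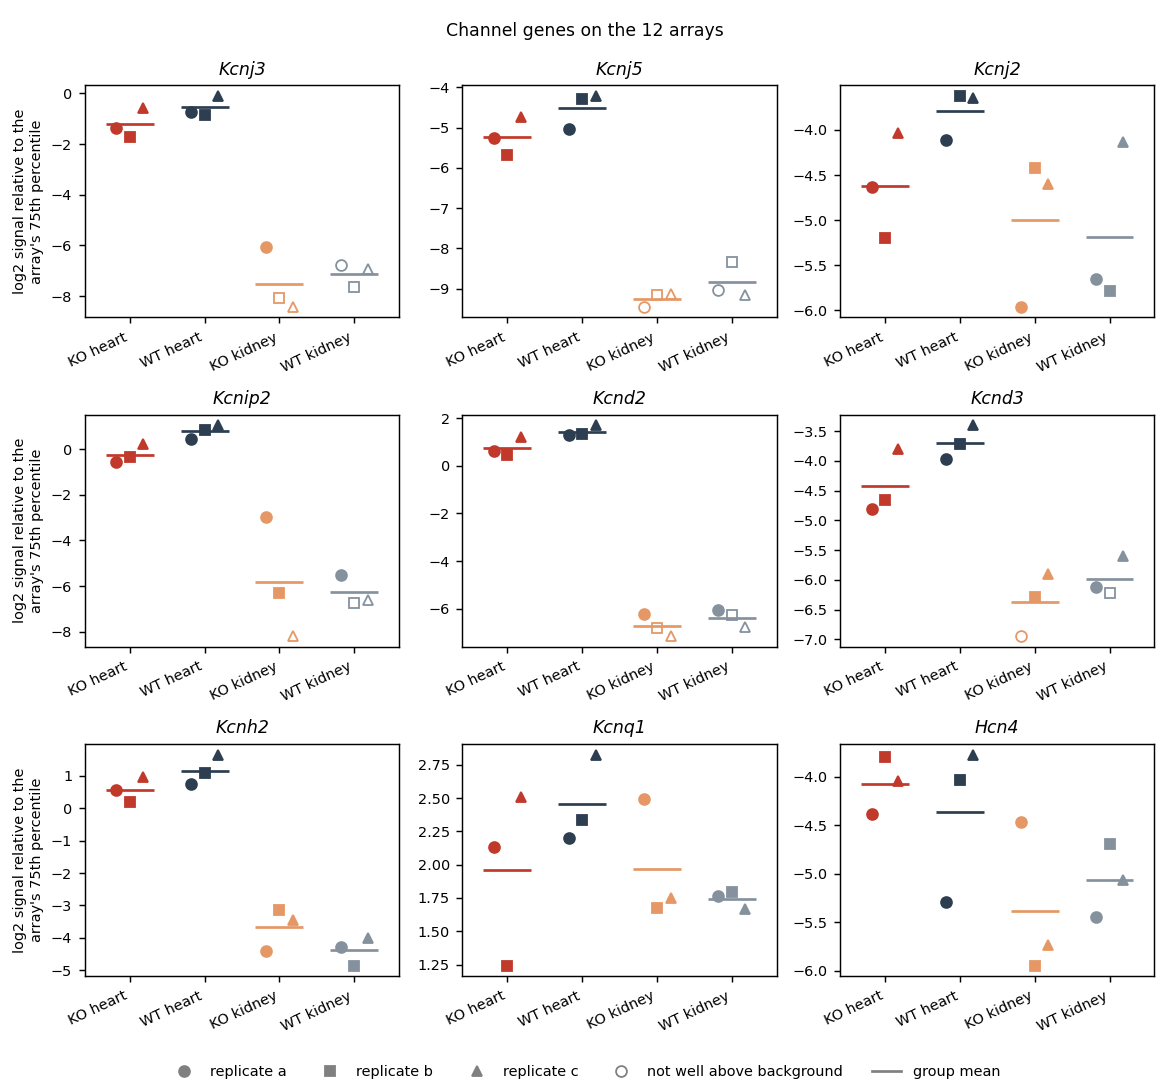
Log2 signal of the 9 channel genes relative to each array's 75th percentile (vertical axis), 1 panel a gene, on the 12 arrays in 4 groups (horizontal axis). Symbols are single arrays, open where the probe was not well above background, and lines are group means. Kcnj3, Kcnj5, Kcnip2, Kcnd2, Kcnd3 and Kcnh2 were higher on every heart than on every kidney, while Kcnj2, Kcnq1 and Hcn4 overlapped between the tissues.

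The pair that adenosine opens was read first. Kcnj3 had signals of -1.37, -1.70 and -0.57 log2 in KO hearts a, b and c, against -0.71, -0.84 and -0.10 in WT hearts a, b and c. KO hearts a and b lay below all WT hearts, and KO heart c lay above WT hearts a and b. The change was -0.66 ± 0.34 log2 (SE, n = 3 each, limma adjusted p = 0.365), with a 95% interval from -1.49 to 0.16. A second Kcnj3 probe, with its own brightness, gave means of -3.70 ± 0.69 in KO hearts and -3.00 ± 0.33 in WT hearts (SD, n = 3 each), a difference of -0.70.

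Kcnj5, the partner subunit, had -5.26, -5.68 and -4.72 log2 in KO hearts, against -5.03, -4.28 and -4.21 in WT hearts. Again KO hearts a and b were the lowest of the 6, and KO heart c lay within the WT range. Its change was -0.71 ± 0.32 log2 (SE, limma adjusted p = 0.332), with a 95% interval from -1.49 to 0.06. In this fit, which leaves the letters a, b and c out, the intervals of both subunits thus reach from a drop of over 1 log2 unit to a small rise. With the letters as a replicate block the SEs were 0.15 for Kcnj3 and 0.27 for Kcnj5 (limma adjusted p = 0.178 and 0.257).

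The stretches of 250 bases before the RefSeq start sites of this pair are shown because the 2 genes encode 1 channel. They come from RefSeq on GRCm38.p6, at chr2:55435720-55435969 on the plus strand and chr9:32344345-32344594 on the minus strand, 5′ to 3′. Capitals mark matches, on either strand, to the TATA box TATAAA, the binding element AGATAA of GATA factors, the T-box element AGGTGT, the E-box CACGTG and the GC box GGGCGG, which do not overlap each other here.
Kcnj3: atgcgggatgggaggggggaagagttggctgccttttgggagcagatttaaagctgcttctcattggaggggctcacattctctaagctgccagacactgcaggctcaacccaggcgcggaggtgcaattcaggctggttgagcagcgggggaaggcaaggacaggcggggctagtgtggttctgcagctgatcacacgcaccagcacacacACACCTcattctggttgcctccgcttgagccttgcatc
Kcnj5: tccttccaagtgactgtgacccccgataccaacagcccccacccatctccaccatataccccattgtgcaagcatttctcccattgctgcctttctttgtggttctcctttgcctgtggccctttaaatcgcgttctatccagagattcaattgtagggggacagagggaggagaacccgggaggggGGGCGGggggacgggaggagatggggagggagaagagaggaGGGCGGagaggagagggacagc
The Kcnj3 stretch held 1 T-box match and the Kcnj5 stretch held 2 GC boxes, so they shared none of the motifs searched.

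The receptor and G protein arm upstream of this channel showed the same lack of calls. Of 16 genes listed, all 16 were tested in heart, 0 were called, 14 had changes below 0 and the median change was -0.15 log2. Limma gave an unadjusted p under 0.05 for 2 of them. Gnao1, a G protein alpha subunit, had the smallest p, with a change of -0.75 ± 0.25 log2 (SE, limma adjusted p = 0.268) and no overlap between KO and WT hearts. Chrm2, the M2 muscarinic receptor, had -3.90, -4.77 and -3.24 in KO hearts, against -3.32, -2.78 and -2.97 in WT hearts, and a change of -0.94 ± 0.39 (adjusted p = 0.316). Adora1, the A1 adenosine receptor itself, had 0.85, -0.29 and 0.37 in KO hearts, against 0.66, 0.43 and 0.79 in WT hearts, so the groups overlapped. Gnai2, the inhibitory alpha subunit, and Rgs4 and Rgs6, which shorten G protein signals, had changes of -0.13, -0.16 and -0.29, with limma adjusted p-values of 0.644, 0.587 and 0.547.

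Kcnj2 had -4.63, -5.20 and -4.03 log2 in KO hearts, against -4.12, -3.62 and -3.64 in WT hearts. The only overlap came from KO heart c, which lay just above WT heart a. The change was -0.83 ± 0.32 log2 (SE, n = 3 each, limma adjusted p = 0.303), with a 95% interval from -1.59 to -0.07. Among the other inward rectifier and KATP channel genes, 10 of 14 listed were tested, 0 were called and 8 had changes below 0, with a median of -0.44. Kcnj14, another inward rectifier, had the smallest p of that list and changed by -1.57 ± 0.39 (adjusted p = 0.186). Kcnj12, the closest relative of Kcnj2 in ventricular muscle, changed by -0.35 ± 0.37, and Kcnj11, the pore of the muscle KATP channel, by -0.58 ± 0.30.

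The transient outward set held the largest of the 9 changes. Kcnip2 had -0.58, -0.37 and 0.24 log2 in KO hearts, against 0.45, 0.85 and 1.04 in WT hearts. Every KO heart lay below every WT heart, by 0.21 log2 at the nearest pair, KO heart c and WT heart a. The change was -1.02 ± 0.27 log2 (SE, n = 3 each), with a limma unadjusted p of 0.0076, an adjusted p of 0.201 and a 95% interval from -1.65 to -0.38.

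Kcnd2 had 0.63, 0.45 and 1.22 log2 in KO hearts, against 1.29, 1.31 and 1.70 in WT hearts. No KO heart reached a WT heart, although KO heart c came within 0.07 log2 of the lowest. The change was -0.67 ± 0.24 (SE, limma adjusted p = 0.294), and a second Kcnd2 probe, whose match crosses an intron, gave a difference of -0.70. Kcnd3 had -4.81, -4.65 and -3.80 in KO hearts, against -3.97, -3.71 and -3.40 in WT hearts. KO heart c lay between WT hearts a and b, and the change was -0.72 ± 0.30 (adjusted p = 0.319).

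Probes of this set follow. Those of Kcnip2 and Kcnd3 gave the readings above, while the Kcnd2 sequence is that of its second probe, not of the one behind the array values given for Kcnd2. The Kcnip2 probe lies at chr19:45690907-45690966 (minus strand), and the Kcnd2 and Kcnd3 probes stretch over chr6:21662299-21663298 and chr3:105485267-105486387 (plus strand), all on build mm7 as the array files give it. Each has 60 bases, so the last 2 cross an intron. They are written 5′ to 3′ with no part set in capitals.
Kcnip2: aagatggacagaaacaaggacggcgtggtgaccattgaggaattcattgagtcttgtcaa
Kcnd2: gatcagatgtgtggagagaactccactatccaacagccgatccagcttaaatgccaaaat
Kcnd3: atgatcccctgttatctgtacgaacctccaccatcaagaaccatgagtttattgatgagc

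The stretches before the start sites of Kcnip2, at chr19:45816064-45816313 (minus strand), and Kcnd2, at chr6:21215096-21215345 (plus strand), follow with the same marking, since these 2 genes had KO and WT hearts that did not overlap.
Kcnip2: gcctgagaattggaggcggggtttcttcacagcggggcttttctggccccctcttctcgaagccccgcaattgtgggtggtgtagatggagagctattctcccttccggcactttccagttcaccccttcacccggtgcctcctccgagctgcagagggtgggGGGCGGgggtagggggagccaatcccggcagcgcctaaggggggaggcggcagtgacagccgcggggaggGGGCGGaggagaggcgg
Kcnd2: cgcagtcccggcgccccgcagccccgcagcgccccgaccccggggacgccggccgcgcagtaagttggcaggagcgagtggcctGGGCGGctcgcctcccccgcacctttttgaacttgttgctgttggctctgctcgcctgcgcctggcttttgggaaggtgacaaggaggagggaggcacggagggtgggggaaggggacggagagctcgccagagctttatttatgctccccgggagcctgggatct
Of the 8 channel genes with an entry, 6 held a GC box, 2 a T-box match, 1 an E-box, and none a TATAAA or AGATAA match. Over all 32851 RefSeq stretches of this length the shares were 32.7% for the GC box, 11.8% for the T-box match, 6.02% for the E-box, 12.4% for TATAAA and 9.99% for AGATAA. The 8 stretches had 58.0% to 73.6% G and C, against a median of 52.4% over all. A match is a description of letters and not a binding site.

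The remaining voltage-gated potassium channel genes and their subunits were tested for 23 of 35 listed, with 0 called, 15 changes below 0 and a median of -0.23 log2. Kcnc1 (Kv3.1) had the smallest p and changed by -1.62 ± 0.28 log2 (SE, limma adjusted p = 0.0775), without overlap between KO and WT hearts. Kcna5 (Kv1.5), which carries an ultrarapid current in mouse heart, changed by 0.09 ± 0.14. Among tandem-pore and calcium-activated channels 9 of 12 were tested and 0 were called. Kcnn4, a calcium-activated channel that lymphocytes carry, had 0.66, 1.48 and -1.62 in KO hearts, against -1.47, -2.02 and -2.15 in WT hearts. It was thus high on the arrays with high thymocyte markers, KO hearts a and b.

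Of the genes that control cardiac channel transcription, 13 of 15 were tested, 0 were called and 11 had changes below 0, with a median of -0.49 log2. Irx5, which represses Kcnd2 in mouse ventricle, changed by -0.50 ± 0.22 (SE, limma adjusted p = 0.326), and KO and WT hearts did not overlap. Klf15, which drives Kcnip2 in mouse heart, changed by -0.01 ± 0.23. Irx3 was not tested in heart. Isl1, a sinus node and neuron factor, had -3.54, -3.31 and -4.70 in KO hearts, against -4.87, -7.24 and -6.78 in WT hearts. The change was 2.45 ± 0.68 (adjusted p = 0.223). Among WT hearts Isl1 was well above background on WT heart a only. It passed the filter through the KO hearts, so this change rests partly on background readings.

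Kcnh2 had 0.56, 0.20 and 0.96 log2 in KO hearts, against 0.75, 1.09 and 1.66 in WT hearts. KO heart c lay between WT hearts a and b, and KO hearts a and b lay below all WT hearts. The change was -0.59 ± 0.29 (SE, n = 3 each, limma adjusted p = 0.355). Kcnq1 had 2.13, 1.24 and 2.51 in KO hearts, against 2.20, 2.33 and 2.83 in WT hearts, with KO heart b far below the other 5. Its change was -0.49 ± 0.35 (adjusted p = 0.475), and without KO heart b it was -0.13. Kcne1, the subunit that slows Kcnq1 in heart muscle, changed by -0.42 ± 0.30 (adjusted p = 0.470). A further probe named Kcnq1 lies on the opposite strand, where the antisense RNA Kcnq1ot1 is annotated, and was left out of the Kcnq1 values. It was well above background on 5 of the 12 arrays. RefSeq's table had no promoter entry for Kcnq1.

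Hcn4 was the exception in direction. It had -4.39, -3.80 and -4.04 log2 in KO hearts, against -5.30, -4.04 and -3.77 in WT hearts, and a change of 0.29 ± 0.41 (SE, n = 3 each, limma adjusted p = 0.701). WT heart a alone was below -5, and without it the difference was -0.17. The sinus node is a small part of a heart, and its 7 listed markers were well above background for 5 to 7 genes on each heart. The log2 of their summed signals was 2.39 to 2.48 on KO hearts and 2.70 to 2.79 on WT hearts. Such a sum is led by the brightest genes, here Tbx3 and Smoc2. The medians of the 7 markers went the other way, at -3.54, -3.31 and -4.70 on KO hearts, against -4.82, -4.78 and -5.02 on WT hearts. The part of these markers in the Hcn4 values was not tested. The 2 Hcn4 probes, at chr9:58889260-58889319 and chr9:58886689-58886748 on mm7 (plus strand), are shown because they disagree.
Hcn4, probe used: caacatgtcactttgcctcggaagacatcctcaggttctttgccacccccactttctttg
Hcn4, other probe: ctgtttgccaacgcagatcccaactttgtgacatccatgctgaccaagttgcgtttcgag
The first was well above background on each of the 12 arrays. The other was so on KO kidney b and WT heart a only, which is the heart that was lowest with the first probe.

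The other pacemaker and calcium channel genes were tested for 9 of 10, with 0 called, 7 changes below 0 and a median of -0.43 log2. Hcn2 changed by -0.58 ± 0.31 (SE, limma adjusted p = 0.376). Cacna1d (Cav1.3), the calcium channel of pacemaker cells, changed by -0.72 ± 0.21 (adjusted p = 0.241). Of the sodium channel genes 8 of 13 were tested, 0 were called, 5 had changes below 0 and the median was -0.25. Scn4a had the smallest p of the list, at -0.54 ± 0.18 (adjusted p = 0.272). Of the 5 gap junction genes, all were tested and had changes below 0, and 0 were called. Gjc1 (connexin 45) changed by -0.51 ± 0.17 (adjusted p = 0.279).

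**Figure D2:**
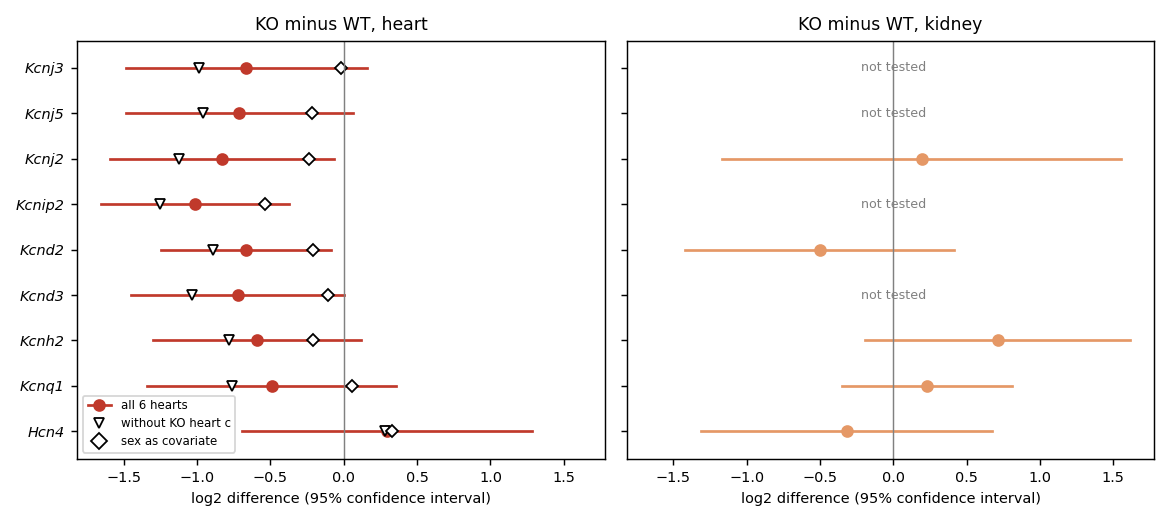
KO minus WT difference in log2 signal (horizontal axis) for the 9 channel genes in heart (left) and kidney (right), with 95% confidence intervals from limma. Open symbols in the heart panel give the difference without KO heart c and with sex as a covariate. The heart intervals of Kcnj2, Kcnip2 and Kcnd2 lie below 0, and no difference was called.

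The KO hearts were spread for these genes. For 8 of the 9, KO hearts a and b were both below all WT hearts, a pattern that 34.9% of all genes tested had. KO heart c was the highest of the KO hearts for 8 of the 9, against 50.7% of all genes tested, and WT heart c the highest of the WT hearts for 8 of the 9, against 43.8%. KO heart c alone was below all WT hearts for 2 of the 9, Kcnip2 and Kcnd2, against 25.1% of all genes tested. The median difference of the 9 genes from the WT mean was -0.80 log2 on KO heart a, -1.15 on KO heart b and -0.21 on KO heart c. On WT hearts a, b and c it was -0.32, -0.02 and 0.30, so the WT hearts also spread, and KO heart c lay within them. Over all genes tested the same medians were -0.12, -0.12 and 0.01 on KO hearts, and -0.02, 0.00 and 0.02 on WT hearts. Set letter against letter, 8 of the 9 genes were lower in the KO heart for a, b and c alike, with Hcn4 the exception, as were 29.1% of all genes tested. For letter c the differences were -0.80 log2 for Kcnip2, -0.70 for Kcnh2, -0.48 for Kcnd2 and -0.47 for Kcnj3. With the letters as a replicate block, none of the 9 was called, against 0.458% of all genes tested. The unadjusted p-values of limma in that fit were 0.0017 for Kcnip2, 0.0082 for Kcnd2, 0.0085 for Kcnj3 and 0.0099 for Kcnd3. They were 0.031 for Kcnh2, 0.038 for Kcnj2, 0.051 for Kcnj5, 0.106 for Kcnq1 and 0.317 for Hcn4.

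**Figure D3:**
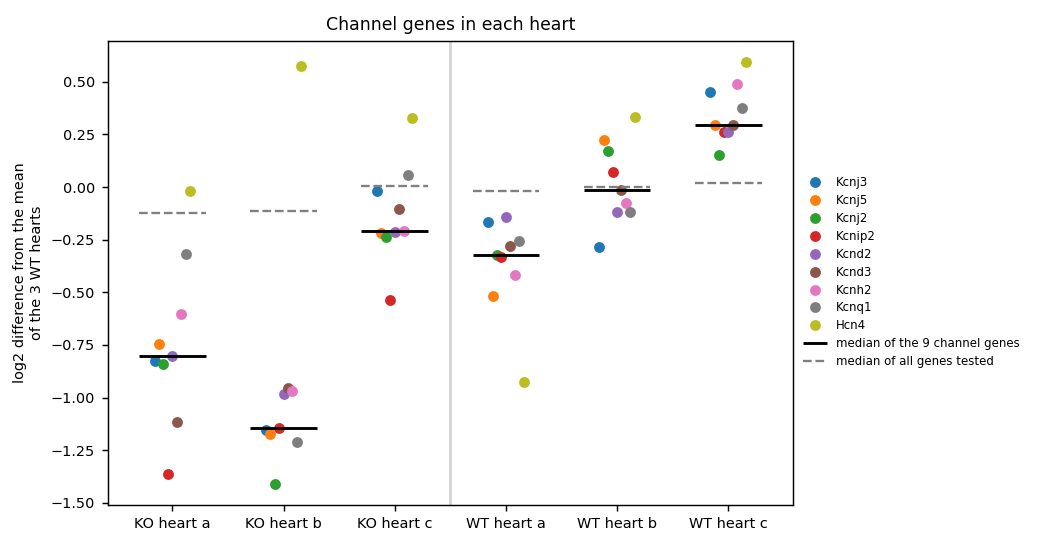
Log2 difference of each of the 9 channel genes from the mean of the 3 WT hearts (vertical axis) on each of the 6 hearts (horizontal axis), with the median of the 9 genes (solid line) and of all genes tested (dashed line). The median of the 9 was -0.80 and -1.15 on KO hearts a and b, and -0.21 on KO heart c.

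Leaving out KO heart c turned 4 of the 9 into calls. Kcnip2 then changed by -1.25 (limma adjusted p = 0.0236), Kcnd3 by -1.03 (0.0350), Kcnd2 by -0.89 (0.0378) and Kcnj2 by -1.12 (0.0468). In that setting 12.4% of all genes tested were called, against 0.675% with all 6 hearts. Without KO heart b the changes of Kcnj2 and Kcnj3 were -0.54 and -0.42, and without WT heart c those of Kcnj3, Kcnh2 and Kcnq1 were -0.44, -0.35 and -0.30. The fit with sex as a covariate sets KO heart c, the KO heart with Y-linked signal, against the WT hearts. It gave -0.54 ± 0.27 (SE) for Kcnip2, -0.24 ± 0.31 for Kcnj2, -0.21 ± 0.23 for Kcnd2 and -0.02 ± 0.33 for Kcnj3, and no calls. Sex, thymocyte markers and the low channel levels moved together on KO hearts a and b and cannot be told apart.

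The cardiomyocyte genes that were saturated on no heart, Ttn, Pln and Ryr2, were also lower on KO hearts a and b. Ttn had 1.77, 1.49 and 2.52 log2 in KO hearts, against 2.07, 2.41 and 2.83 in WT hearts. Pln averaged 5.74 in KO hearts and 6.20 in WT hearts, and Ryr2 averaged -1.29 and -1.06 in KO and WT hearts. Set relative to the mean of these genes, a scale chosen after the data were seen, the median change of the 9 channel genes was -0.27 log2 instead of -0.67. Kcnip2 then changed by -0.62 ± 0.25 (SE, limma adjusted p = 0.501), and the median of all genes tested was 0.33. The 8 atrial markers had medians of 3.94, 3.69 and 4.19 on KO hearts and 4.16, 3.95 and 4.69 on WT hearts.

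Liver markers differed between the genotypes on all hearts, KO heart c included. The 8 genes of that list had medians of -1.84, -1.64 and -1.001 log2 on KO hearts a, b and c, against -4.13, -5.53 and -5.88 on WT hearts. Of the 8, 7 were well above background on each KO heart and 4 to 6 on WT hearts. The log2 of the summed signals of the 8 was 1.88 to 2.68 on KO hearts and -1.94 to -0.67 on WT hearts. Alb, serum albumin, was at 0.31, 0.46 and 1.34 on KO hearts, against -2.13, -2.85 and -3.62 on WT hearts. Markers of other tissues differed between single hearts. The 8 lung and airway markers had a median of 4.13 on KO heart a, against -7.24 to -3.92 on the other 5 hearts, and the 9 skeletal muscle markers a median of 1.46 on WT heart a, against -3.91 to -2.43 elsewhere. The 10 autonomic neuron markers had medians of -5.91, -5.96 and -6.12 on KO hearts, against -5.09, -6.84 and -7.33 on WT hearts. For the 10 genes of the thymus list, the log2 of the summed signals was 0.88 to 7.77 on KO hearts and 0.35 to 0.88 on WT hearts. Rag1, which thymocytes use to rearrange antigen receptors, was at 3.28 and 4.05 on KO hearts a and b, and at -7.94 on KO heart c, against -8.74 to -8.30 on WT hearts. Clock genes differed between the hearts as well. The log2 of their summed signals was 5.19 to 6.18 on KO hearts and 6.36 to 6.55 on WT hearts. Their medians went the other way, at 0.52, 0.59 and 0.51 on KO hearts, against 0.39, 0.37 and 0.47 on WT hearts. Dbp was at 5.65, 4.60 and 5.88 on KO hearts, against 6.23, 6.05 and 6.27 on WT hearts. The part of these tissues and of the clock genes in the channel values was not tested.

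**Figure D4:**
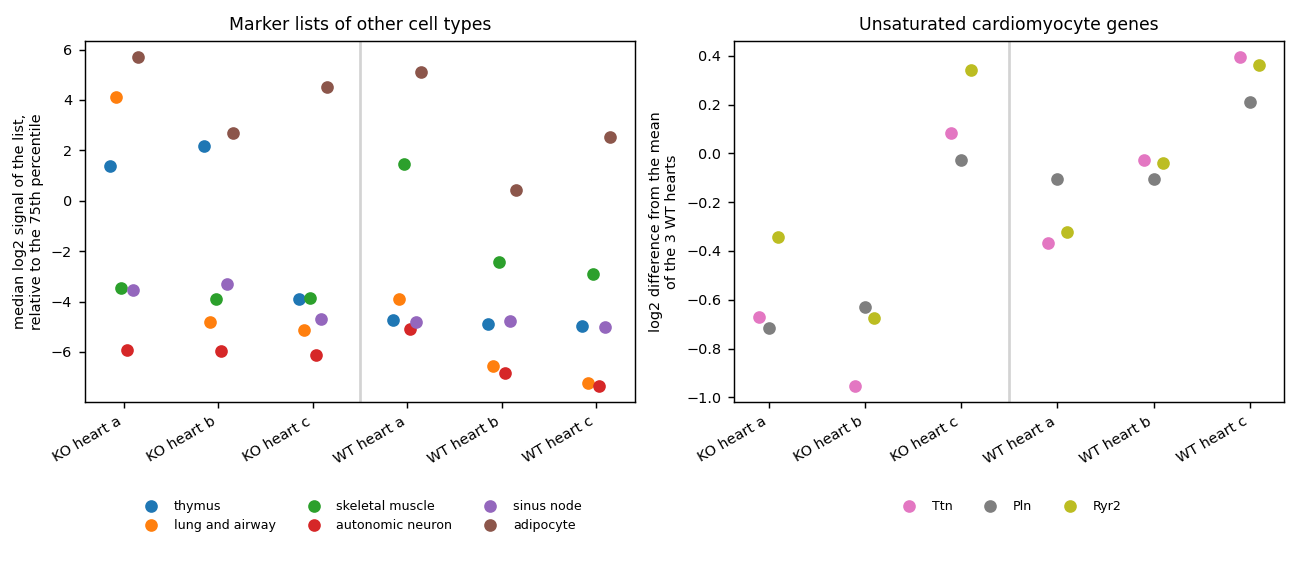
Left, median log2 signal of 6 marker lists relative to the 75th percentile (vertical axis) on each of the 6 hearts (horizontal axis). Right, log2 difference of Ttn, Pln and Ryr2 from the mean of the 3 WT hearts. Thymus markers stand at 1.40 and 2.18 on KO hearts a and b, where Ttn and Pln are lowest.

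In the kidney, 5 of the 9 channel genes could be tested and none was called, against 0.163% of the 17227 genes tested. None of the 5 had an unadjusted p under 0.05 in limma, against 13.1% of all genes tested. Kcnq1, the tubule channel of the set, had 2.49, 1.67 and 1.75 log2 in KO kidneys, against 1.76, 1.80 and 1.66 in WT kidneys. KO kidney a alone was high, and the change was 0.23 ± 0.24 (SE, n = 3 each, adjusted p = 0.714). Kcnh2 had -4.42, -3.15 and -3.44 in KO kidneys, against -4.29, -4.86 and -4.00 in WT kidneys. KO kidneys b and c were above all WT kidneys, KO kidney a lay among them, and the change was 0.71 ± 0.38 (adjusted p = 0.487). KO kidneys b and c also stood apart in clock genes, with Dbp at 2.07 and 2.15, against 6.09 on KO kidney a and 6.08 to 6.80 on WT kidneys. The log2 of the summed signals of the 12 clock genes was 3.93 to 6.45 on KO kidneys and 6.42 to 7.04 on WT kidneys. Medians of the 12 were -0.003, -0.24 and -0.46 on KO kidneys a, b and c, against -0.17, -0.21 and -0.35 on WT kidneys. The part of the clock genes in the channel values was not tested.

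Kcnj2 had -5.96, -4.43 and -4.60 log2 in KO kidneys, against -5.65, -5.79 and -4.13 in WT kidneys, so each group held both low and high arrays. The change over all 6 was 0.19 ± 0.57 (SE, limma adjusted p = 0.904). With slide as a block it was 1.21 ± 0.18 (limma adjusted p = 0.0456), where 1.59% of all genes tested were called, against 0.163% without the block. KO kidney a and WT kidney c each had no other kidney on their slide. The blocked estimate thus rests on the 1 slide that held both genotypes, with 2 kidneys each. Fitted within that slide alone it was again 1.21 ± 0.18 (limma adjusted p = 0.0511), from the same kidneys. Kcnd2, read with its second probe, changed by -0.50 ± 0.38, and Hcn4 by -0.32 ± 0.42, with adjusted p-values of 0.614 and 0.768.

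The 4 genes not tested in kidney were Kcnj3, Kcnj5, Kcnd3 and Kcnip2. Kcnip2 had -2.98, -6.31 and -8.19 log2 in KO kidneys, against -5.51, -6.73 and -6.59 in WT kidneys, and was well above background on 3 of these 6 arrays. KO kidney a stood more than 2 log2 units above every other kidney. On the same array Th and Dbh, enzymes of catecholamine synthesis, were at -2.54 and -2.94, against -8.62 to -7.63 and -6.62 to -6.11 on KO kidneys b and c. In WT kidneys these enzymes were at -8.90 to -8.09 and -6.96 to -6.58. The part of other cell types in the Kcnip2 value was not tested.

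None of the listed channel, receptor, transcription factor and gap junction genes was called in kidney. The smallest p of each list belonged to Abcc9, a KATP subunit that changed by -0.64 ± 0.16 log2 (SE, limma adjusted p = 0.182), Kcne3 at -0.72 ± 0.19, Kcnn4 at -0.73 ± 0.15, Scn3b at -0.93 ± 0.24 and Hcn2 at -0.78 ± 0.48. In the remaining lists it belonged to Adora1 at 0.68 ± 0.23, Tbx3 at 0.85 ± 0.28 and Gja3 at 0.97 ± 0.30. Their adjusted p-values ran from 0.126 to 0.539.

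Whether the KO effect differed between the tissues was tested in 1 fit of the 12 arrays, as the heart difference minus the kidney difference. None of the 9 was called, against 0.638% of the 18503 genes tested. For Kcnj3, Kcnj5, Kcnd3 and Kcnip2, which entered this test through the hearts, the kidney side was partly or wholly at background, so it says little of them. Kcnj5 was well above background on none of the 6 kidneys, Kcnj3 on 1 and the heart probe of Kcnd2 on 2. Kcnh2 had the smallest p, with a heart difference of -0.59 and a kidney difference of 0.71 log2. The difference between them was -1.30 ± 0.52 (SE), with a limma unadjusted p of 0.0315 and an adjusted p of 0.295, where 14.6% of all genes tested had an unadjusted p under 0.05. The interval of Kcnj2 ran from -2.63 to 0.59.

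Kcnj3, Kcnj5, Kcnip2, Kcnd2, Kcnd3 and Kcnh2 had larger measured differences between the tissues than between genotypes. Kcnj2, Kcnq1 and Hcn4 overlapped between the tissues. WT hearts exceeded WT kidneys for 7 of the 9 at a limma adjusted p under 0.05, with 58.5% of all genes tested called and 30.6% called higher in heart. Kcnh2 and Kcnj2, read on all kidneys, differed by 5.55 ± 0.37 log2 (SE, adjusted p = 3.51e-07) and by 1.39 ± 0.51 (adjusted p = 0.0377). The other 5 were not well above background on some or all WT kidneys, and they passed the filter through the hearts. Kcnd3, above it on 2 of 3 WT kidneys, differed by 2.29 ± 0.33 (adjusted p = 1.34e-04). Kcnd2 and Kcnip2, each above it on 1 of 3, differed by 7.80 ± 0.29 and 7.05 ± 0.999, where most of the kidney values are background readings (adjusted p = 4.56e-09 and 1.13e-04). The Kcnj2 call was lost, with adjusted p-values of 0.0505 to 0.134, when any WT heart, WT kidney a or WT kidney b was left out, and with no filter on dim probes (adjusted p = 0.0584). Kcnq1 and Hcn4 were not called, but Kcnq1 was with quantile scaling (adjusted p = 0.0458) and without KO heart b, which shares the fit (adjusted p = 0.0329), and Hcn4 was without WT heart a (adjusted p = 0.0401).

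For the G protein-gated pair the kidney side is only a bound. Kcnj5 was not well above background on any kidney, and its signal was at least 3.37-fold higher in KO hearts than in KO kidneys and at least 4.19-fold higher in WT hearts than in WT kidneys. By the probe used, Kcnj3 was not well above background on any WT kidney, with at least a 65.0-fold higher signal in WT hearts. Among KO kidneys that probe was above it on KO kidney a only. The second, dimmer Kcnj3 probe was well above background on no kidney. It gave lower bounds, of at least 11.9-fold between WT tissues and 9.67-fold between KO tissues. These bounds set the heart mean against, on each kidney, the higher of the probe's own signal and the lowest signal well above background. The measured means of Kcnj3 were -0.55 in WT hearts and -7.12 in WT kidneys, and those of Kcnj5 -4.51 and -8.84 in WT hearts and WT kidneys (adjusted p = 2.09e-06 and 6.04e-07).

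In KO mice the same 7 genes less Kcnj2, plus Hcn4, were called higher in heart than in kidney, where 60.5% of all genes tested were called and 33.2% called higher in heart. The tissues differed by 4.24 ± 0.37 log2 for Kcnh2 (SE). They differed by 7.50 ± 0.29 for Kcnd2 and 5.59 ± 0.999 for Kcnip2, which were well above background on 1 and 2 of the 3 KO kidneys. Kcnj3, Kcnj5 and Kcnd3 were so on 1, 0 and 2 of the 3 KO kidneys. Kcnj3, Kcnj5, Kcnip2, Kcnd2 and Kcnd3 thus passed the filter through the hearts, and their calls rest partly or wholly on background readings in kidney. Hcn4 was higher in KO hearts than in KO kidneys by 1.31 ± 0.45 (limma adjusted p = 0.0285), against 0.69 ± 0.45 between the WT tissues (adjusted p = 0.216). The difference between these Hcn4 values, 0.61 ± 0.64, did not pass the test (adjusted p = 0.698). Kcnj2 differed by 0.37 ± 0.51 between KO tissues (adjusted p = 0.556). Kcnq1, the gene shared by cardiac muscle and tubule, differed by -0.01 ± 0.33 between KO tissues (adjusted p = 0.982) and by 0.71 ± 0.33 between WT tissues (adjusted p = 0.0843).

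The mean levels of 7 of the 9 genes had the same order, with WT hearts highest, KO hearts next and both kidney groups below, whereas the exceptions were Kcnq1 and Hcn4. Kcnq1 averaged 1.96 ± 0.65 in KO hearts, 2.45 ± 0.33 in WT hearts, 1.97 ± 0.45 in KO kidneys and 1.74 ± 0.07 in WT kidneys (SD, n = 3 each), and only the step between the highest mean, of WT hearts, and the next, of KO kidneys, exceeded the larger SD of its pair. Hcn4 averaged -4.08 ± 0.30 in KO hearts, -4.37 ± 0.81 in WT hearts, -5.38 ± 0.80 in KO kidneys and -5.06 ± 0.38 in WT kidneys (SD, n = 3 each). No neighbours in the order of these means differed by more than the larger SD of the pair.

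The genes most like each channel gene over the 12 arrays were found by the root mean square difference of log2 values after each gene's own mean was removed, over 15529 genes. The arrays fall into hearts and kidneys, so the measure is led by that difference. Nearest to Kcnd2 were Asb2, Tnni3k and Ttn (0.26, 0.30 and 0.30 log2), genes of striated muscle. Nearest to Kcnip2 was Kcnj3 itself (0.72), followed by Igdcc4 (0.78) and Comp (0.80). Kcnj3 had Igdcc4, Lmod3 and Bean1 (0.50, 0.51 and 0.51), Kcnj5 had Neurl2, Smco1 and Plaat1 (0.20, 0.24 and 0.26), and Kcnd3 had Cfap20dc, Fbxo40 and D830050J10Rik (0.20, 0.24 and 0.25). Kcnh2 had Adamtsl5, Obsl1 and Camk2b (0.25, 0.30 and 0.33), and Kcnq1 had Ppip5k1, Kcnn2 and Pdha1 (0.16, 0.20 and 0.20). Kcnj2 had 2310067E19Rik, Rbmxl2 and Nrp1 (0.30, 0.31 and 0.39), and Hcn4 had Hoxc4, Vash1 and Ipo5 (0.39, 0.40 and 0.41).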

How the data were processed

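Agilent 1-colour arrays of 12 samples (3 per group) were used. The authors deposited scanner intensity values from Agilent Feature Extraction, version 9.5.3.1 per the file headers and 9.1 per the submitters' processing notes, background-subtracted within each array. The other columns read were flags of saturation and background, as deposited in the same files. The authors' deposited log2 table is centred per probe within a tissue. Its columns follow the array of the same tissue and letter but the other genotype (r of 0.9998 or more, against -0.27 to -0.06 with the array of the same label). The labels of the scanner files were kept, because Slc29a1 is low on arrays labelled knockout, and by the labels of the table every direction would turn.

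Flagged spots were left out, spots of a probe averaged, and log2 processed signals set relative to each array's 75th percentile, which was 451 to 878 intensity units. The arrays had 24680 to 28813 probes well above background, and their number limits the precision. The brightest probe of a gene was used. limma 3.58.1 in R 4.3.3 was fitted per tissue, or to 12 arrays for tissue contrasts, and was tested on simulated data. Probes were named through RefSeq's gene table by accession, symbol or synonym.

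Replicate letters were checked as pairs: deviations from the group means correlated at 0.39, 0.19 and 0.26 between hearts of the same letter, and at 0.10, -0.01 and -0.15 between kidneys, so the letters were taken to pair hearts only. The SEs, intervals and p-values given for hearts leave this pairing out unless the replicate block is named. KO heart b and KO kidney b differed in their sex-linked signal. Xist exceeded the Y-linked genes on KO hearts a and b, but on KO kidney a alone among KO kidneys. By this signal the KO hearts and KO kidneys do not all come from the same 3 mice, whatever the letters mark. The 9 genes, the lists and the rule for named genes (9 genes always, the targeted gene, a fixed set of partners, and the smallest p of each list where none was called) were chosen with earlier results of these data known. Some genes of that fixed set are not reported here.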

Additional observations from a re-analysis of the deposited data

How the results depend on the processing

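With 3 arrays a group, 118 of 17484 genes were called in heart and 28 of 17227 in kidney. The count of channel genes called in heart was 0 under background correction by normexp, quantile or median scaling, no filter, the mean of all probes, a scale of 8 cardiomyocyte genes or of the unsaturated ones, a probe chosen within the tissue, 1 fit of 12 arrays, the sex covariate and the deposited table. It ranged from 0 to 4 when 1 heart was left out, with 4 without KO heart c. The replicate block of letters also gave 0 in heart and 0 in kidney, with Kcnip2 in heart at a limma adjusted p of 0.108. That block was fitted for these comparisons only, and over all genes it gave 80 calls in heart. In kidney the count was 1 (Kcnj2) with slide as a block. Counts over all genes ran in heart from 17 with normexp to 2256 without KO heart c, in kidney from 0 with normexp to 274 with slide as a block (2 with the replicate block), and for the difference between tissues from 0 with normexp to 1500 without KO heart c, against 118. Median scaling put the median change of all genes in heart at -0.23 log2, and that of the channel genes at -0.83. A slide block could not be fitted in heart, where each slide held 1 genotype of heart, nor slide as a random block.

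Between WT tissues the count of channel genes called was 4 under normexp, which adds 50 to each signal before the logarithm (Kcnj5, Kcnd3 and Kcnj2 were lost). It was 8 with quantile scaling (Kcnq1 was added), 6 with no filter (Kcnj2 was lost), and 6 to 8 when 1 array was left out. The shares of all genes tested that were called were 33.6%, 60.1%, 37.4% and 51.6% to 61.4% in these settings, in that order. In the main fit the share was 58.5%. Under normexp, Hcn4 had a difference between tissues' effects of -0.71 log2, and the kidney changes of Hcn4 and Kcnd2 were 0.76 and 0.74. With the sex covariate Kcnq1 changed by 0.057 in heart and by -0.030 in kidney. In kidney it changed by -0.069 both with slide as a block and within the shared slide, which compare the same kidneys. Leaving out 1 array, the KO minus WT change of Hcn4 in heart ran from -0.17 to 0.59. That of Kcnj2 in kidney ran from -0.11 to 0.72, and that of Kcnq1 in kidney from -0.030 to 0.38. For Kcnj3 the heart difference minus the kidney difference, each KO minus WT, ran from -0.71 to 0.47. Apart from the construction of normexp and of the fits with fewer arrays, the cause was not tested.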
